A study of Arabidopsis thaliana with 6 samples.

Results

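Class III homeodomain leucine zipper (HD-ZIP III) genes and the Asymmetric Leaves genes AS1 and AS2 were examined for mRNA and for histone marks in young *Arabidopsis thaliana* leaves. The 7 genes were taken by locus: PHABULOSA (PHB, AT2G34710), PHAVOLUTA (PHV, AT1G30490), REVOLUTA (REV, AT5G60690), ATHB8 (AT4G32880), CORONA (CNA, also ATHB15, AT1G52150), AS1 (AT2G37630) and AS2 (AT1G65620). Each of the 7 was present in a set of 27444 protein-coding nuclear genes. Plants of accession Columbia-0 (strain label Col0, with no mutation or treatment named) were kept on soil at 22.5 °C under a short-day cycle (8 h light, 16 h dark). Chromatin immunoprecipitation was done in 2 samples each for trimethylated lysine 4 (H3K4me3) and lysine 27 (H3K27me3) of histone H3, with 1 input DNA sample and 1 mRNA sample. For each mark 1 list of domains was used, and for mRNA 1 table of mean depth per gene, so no value below has a replicate error, and no difference between genes was tested. The number of reads behind each domain and each depth is unknown.

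The upper (adaxial) and lower (abaxial) faces of a leaf are set up by opposing sets of transcription factors. HD-ZIP III proteins promote adaxial fate, meristem function and vascular patterning, and their mRNAs are cleaved through the microRNAs miR165 and miR166, which act on the abaxial side. AS1, a MYB protein, and AS2, a Lateral Organ Boundaries Domain (LBD) protein, form a complex that keeps class I KNOX homeobox genes silent in leaves and acts with the Polycomb machinery. H3K27me3 is deposited by Polycomb Repressive Complex 2, whereas H3K4me3 is typical of transcribed genes. Whole leaves were sampled, so the side on which a gene was expressed was not measured. In such bulk material a mark in fewer cells and less of it per cell cannot be told apart, and marks found on 1 gene may lie in different cells.

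The 7 genes did not share a chromatin state. PHB, PHV, REV and AS1 carried H3K4me3 alone, CNA and AS2 carried both marks, and ATHB8 carried H3K27me3 alone. Carrying a mark means that at least 150 bases of the body, or the whole of a shorter body, lay in its domains. H3K4me3 was thus on 6 of the 7, where 64.4% of all protein-coding genes carried it. H3K27me3 was on 3 of the 7, against 31.0% of all genes, and both marks were on 2 of the 7, against 10.1%. H3K4me3 alone was found on 54.2% of all genes and H3K27me3 alone on 20.8%. The H3K27me3 count is thus close to what its share over all genes gives for 7 genes. Shares differed among the 10669 genes with mRNA depths between 2.09 and 16.3, the range of the members. There 91.6% carried H3K4me3, 12.3% H3K27me3, 8.70% both marks and 3.61% H3K27me3 alone. That range was set by the members themselves, and no difference from either background was tested. The results below concern which members carried H3K27me3 and where.

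All 7 genes were listed in the mRNA table, as were 72.9% of protein-coding genes. AS1 had the highest depth at 16.3, followed by CNA at 7.98, PHB at 6.61, ATHB8 and PHV at 4.47, REV at 3.31 and AS2 at 2.09. The highest depth was 7.82 times the lowest. Because there was 1 library, it is not known which neighbours in this order differ beyond their error, and ATHB8 and PHV gave the same value to 3 digits. The median of the 7 was 4.47, above the median of 3.41 over all protein-coding genes with unlisted genes at 0, but below the median of 6.92 over listed genes. AS1 was deeper than 74.6% of listed protein-coding genes, CNA than 54.2%, PHB than 48.7%, REV than 30.7% and AS2 than 21.2%. The bodies of AS1 and ACT1 overlap by 330 bases, and those of REV and AT5G60700 by 67 bases, and reads from these stretches cannot be assigned to either gene.

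**Figure D1:**
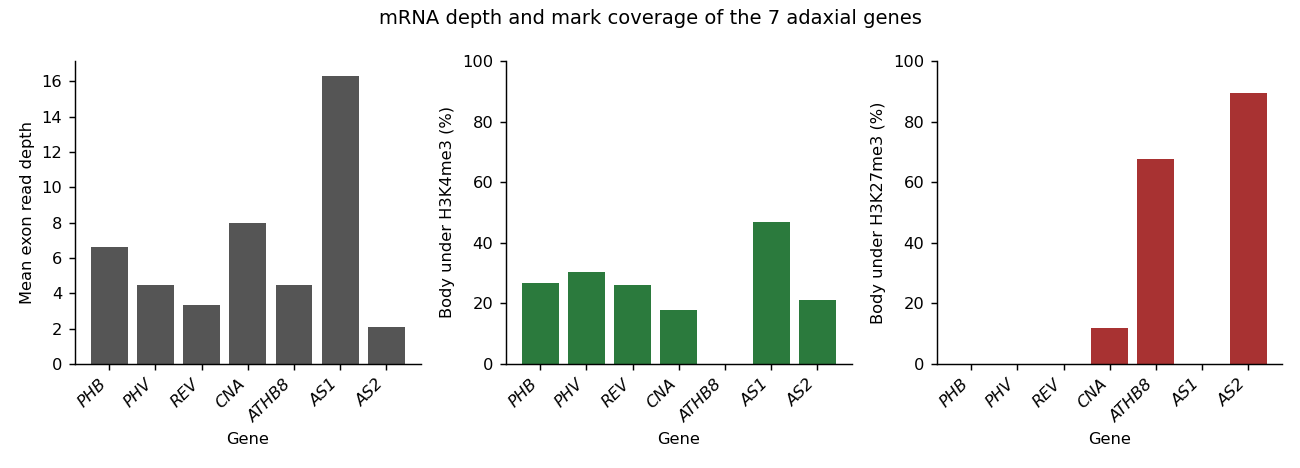
Mean exon read depth in the mRNA library (left), share of the gene body under H3K4me3 domains (middle) and share under H3K27me3 domains (right), in percent, for the 7 genes, with 1 value per gene and no error bars because there are no replicate values. AS1 stands highest in depth at 16.3, and only CNA, ATHB8 and AS2 have bars for H3K27me3.

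PHB and PHV are sister genes whose products act redundantly in adaxial fate, and both carried H3K4me3 alone. PHB had 2 H3K4me3 domains toward the high-coordinate end of its body, at chr2:14642701-14643300 and chr2:14643451-14644200 (TAIR10), which together covered 1350 bases or 26.8% of it. PHV had 1 domain of 1500 bases at the same end, at chr1:10799551-10801050, covering 30.2%. By score, the PHB domains stood at percentiles 15.2 and 44.5 of the H3K4me3 list and the PHV domain at 82.4. PHB therefore lost H3K4me3 and PHV kept it when domains under the median score were left out. The score rises with width, however, and the PHB domains were narrower, at 600 and 750 bases. Among domains of their own width, the PHB domains stood at percentiles 0.62 and 29.2 and the PHV domain at 16.1. Neither gene body was touched by H3K27me3. The nearest H3K27me3 domain lay 1722 bases from the body of PHB, where it was 300 bases wide, and 1523 bases from the body of PHV, where it was 900 bases wide, in each case on the low-coordinate side. The next protein-coding gene on the high-coordinate side encodes a nuclear factor Y subunit A at both loci, NF-YA4 beside PHB and NF-YA7 beside PHV, and both of these carried H3K4me3 alone, with depths of 20.8 and 7.24. On the low-coordinate side the neighbours differed, since AT2G34700 beside PHB had its entire body under H3K27me3 and no mRNA value, whereas DRT111 beside PHV carried H3K4me3 alone at a depth of 9.10.

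REV, which acts in axillary meristems, interfascicular fibres and leaf polarity, also carried H3K4me3 alone. Its domain of 1350 bases at chr5:24397051-24398400 covered 25.9% of the body and lay at the low-coordinate end. It therefore did not touch the 67 bases shared with AT5G60700, which are at the other end. The nearest H3K27me3 domain, of 300 bases at chr5:24405301-24405600, began 3105 bases beyond the body and lay in AT5G60700, which carried both marks at a depth of 6.29. REV had the lowest depth of the 4 genes with H3K4me3 alone and was deeper than 17.7% of the listed genes of that class, against 25.5% for PHV, 38.1% for PHB and 69.6% for AS1.

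CNA and ATHB8 form the other sister pair of the class and act mainly in vascular tissue and meristems. They were marked differently. CNA carried 1 H3K4me3 domain of 900 bases at chr1:19413751-19414650, covering 17.7% of the body, and 1 H3K27me3 domain of 600 bases at chr1:19413601-19414200, covering 11.8%. The domains shared 450 bases near the high-coordinate end. That share of H3K27me3 was small, since 3.58% of all genes with the mark had a lower one, and the domain stood at percentile 26.7 of the H3K27me3 list by score, a number per domain that grows with width. CNA was deeper than 62.1% of the listed genes with both marks. On its low-coordinate side a row of 3 H3K27me3 domains ran from chr1:19404901 to 19409100 and ended 587 bases from the body. This row covered 96.0% of the neighbour AT1G52140, which also carried H3K4me3 and had a depth of 7.09.

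ATHB8, a procambium gene that marks early vein formation, was the only member of the 7 without H3K4me3 on its body. It held 4 H3K27me3 domains, of 900, 600, 1800 and 300 bases, between chr4:15863701 and 15868500, which covered 3600 bases or 67.8% of the body. That share exceeded the shares of 43.5% of the genes with the mark, so ATHB8 was near the middle of them. Its depth of 4.47 was high for its class, where 26.0% of the genes were listed and the listed ones had a median of 1.33. ATHB8 was deeper than 86.0% of those listed genes. PHV reached the same depth with H3K4me3 alone. The closest H3K4me3 to ATHB8 was a domain of 300 bases at chr4:15862201-15862500, 838 bases from the body, inside the neighbour AT4G32870, and an H3K27me3 domain had the same start and end. The widest gap between the 4 domains on ATHB8 was 600 bases, and when gaps up to that size were closed, a choice made after seeing the data, they formed 1 span of 4800 bases.

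**Figure D2:**
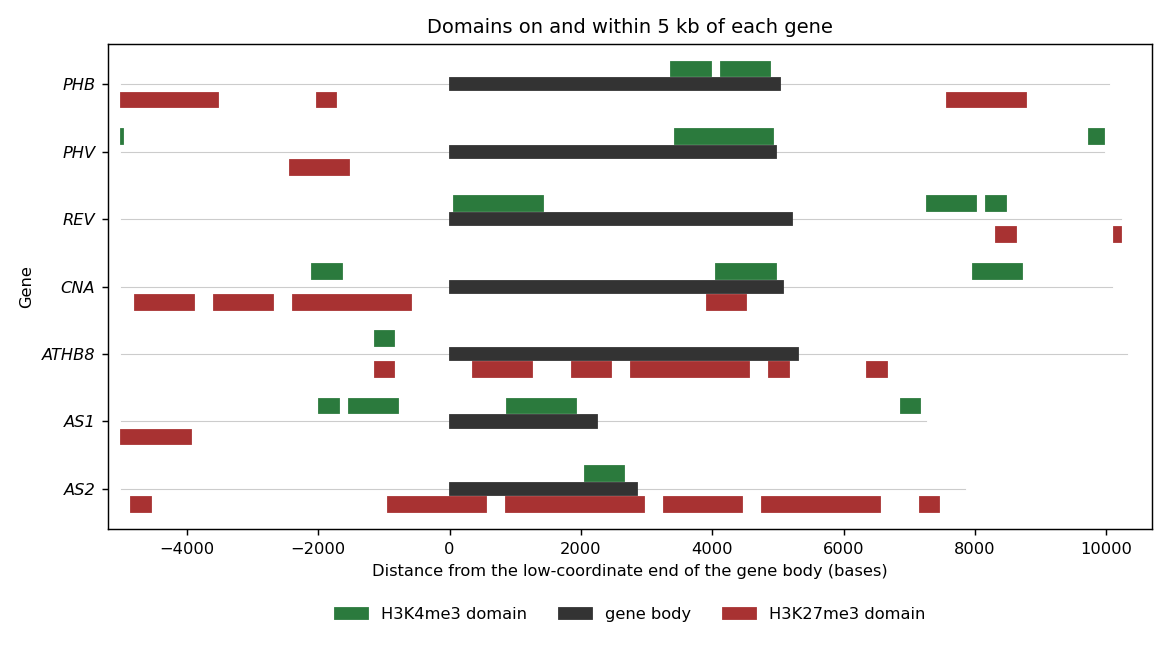
H3K4me3 domains (green, above), gene bodies (black) and H3K27me3 domains (red, below) for the 7 genes and 5000 bases on either side, drawn to scale in bases from the low-coordinate end of each body, without regard to the direction of transcription. ATHB8 and AS2 lie among rows of H3K27me3 domains, CNA has 1 on its body, and PHB, PHV, REV and AS1 have none there.

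The 2 members of the AS complex stood at opposite ends of the group in depth. AS1 carried H3K4me3 alone, in a domain of 1050 bases at chr2:15782101-15783150 that covered 46.7% of its body, the highest share of the 7. Its body was also the shortest, at 2249 bases. In bases, PHV with 1500 and PHB and REV with 1350 each had more H3K4me3. The AS1 domain lay outside the 330 bases shared with ACT1, which itself carried H3K4me3 alone at a depth of 15.2. The nearest H3K27me3 lay 3931 bases away. AS2 was covered over 89.5% of its body by H3K27me3, the highest share of the 7, from 2 domains at chr1:24397201-24398700 and chr1:24399001-24401100. The second of these, 2100 bases wide, stood at percentile 93.6 of the H3K27me3 list by score. AS2 also held an H3K4me3 domain of 600 bases at chr1:24400201-24400800, and all 600 bases lay within H3K27me3. Its depth of 2.09 was the lowest of the 7, and AS2 was deeper than 33.5% of the listed genes with both marks.

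AS2 also lay in the longest stretch of H3K27me3 among the 7. Its 2 domains and the next 2 on the high-coordinate side were each separated by 300 bases, the smallest gap present in that list. Closing gaps of this size, likewise chosen after seeing the data, joined the 4 into 1 span of 7500 bases from chr1:24397201 to 24404700, at percentile 98.8 of the 12545 spans so formed. For ATHB8 the longest such span was 3300 bases, at percentile 90.4, and for CNA it stayed at 600 bases, at percentile 27.4. Both protein-coding neighbours of AS2, KOR2 and DEG3, carried H3K27me3 alone and had no mRNA value. The mark covered the whole body of DEG3 but 7.83% of that of KOR2. Of the 14 neighbours of the 7 genes, these and AT2G34700 beside PHB were the members of that class. The class held 20.8% of all protein-coding genes, so its count among the neighbours was near that share.

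**Figure D3:**
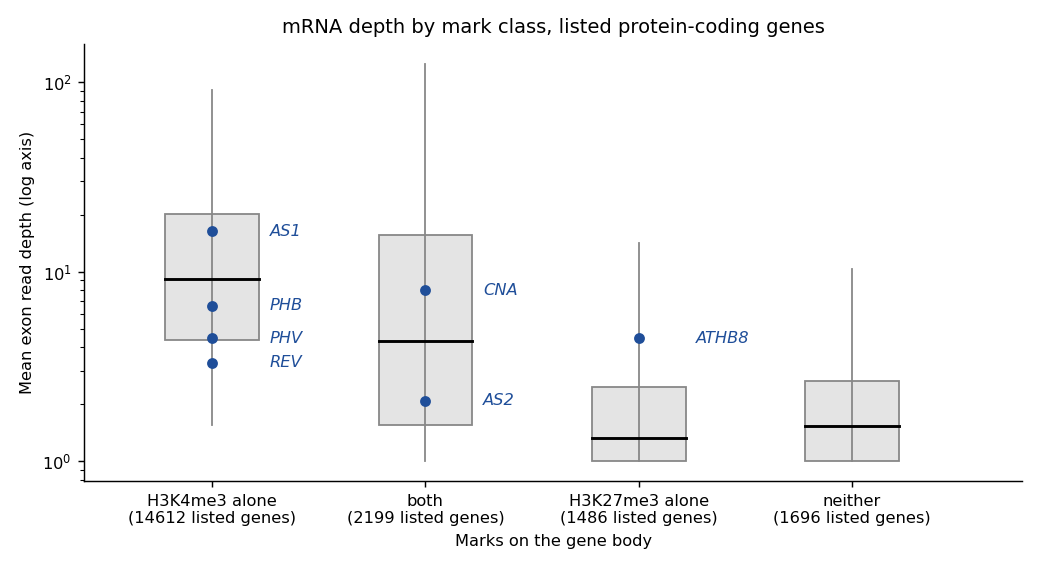
Mean exon read depth (log axis) of listed protein-coding genes by the marks on their bodies, as median (line), quartiles (box) and 5th to 95th percentile (whisker), with the 7 genes as blue points. ATHB8 at 4.47 lies above the upper quartile of 2.48 of genes with H3K27me3 alone, while PHB at 6.61, PHV at 4.47 and REV at 3.31 lie below the median of 9.18 of genes with H3K4me3 alone.

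The H3K4me3 domains on these genes had low scores for their width. Each carrier's main domain, the domain covering most of its body, was ranked by score among all H3K4me3 domains of the same width, a comparison chosen after seeing the values. REV stood at percentile 8.82, CNA at 9.89, AS2 at 15.2, PHV at 16.1, AS1 at 17.0 and PHB at 29.2. The other H3K4me3 domain on PHB, not its main one, stood at 0.62. All 6 were thus below percentile 50, as were 48.6% of all H3K4me3 carriers. The median of the 6 was 15.6, against 51.4 over all 17671 carriers and 51.6 over the 9771 carriers whose depth lay between 2.09 and 16.3, the range of the members. The abaxial KANADI and YABBY genes also had a low median, 20.9 over 7 carriers, and medians were 39.9 over 9 HD-ZIP I genes, 40.2 over 7 genes of the trans-acting siRNA branch, 51.2 over 11 HD-ZIP IV genes and 65.1 over 8 HD-ZIP II genes. In bases under H3K4me3 the 6 genes were spread, since PHV exceeded 93.5% of all carriers, PHB and REV 89.8%, AS1 75.9%, CNA 61.6% and AS2 20.3%. For H3K27me3 the main domains of the 3 carriers were spread, with AS2 at percentile 89.5, CNA at 31.5 and ATHB8 at 26.5. Of these, 2 were below percentile 50, as were 40.6% of all H3K27me3 carriers. The share was 60.2% among the 186 carriers in the depth range of the members with bodies of 4 kb or more. Domains other than the main one stood at 87.0, 32.6 and 75.6 on ATHB8 and at 40.9 on AS2. The sources used here do not give the unit of the score, so these ranks hold within each list only.

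**Figure D4:**
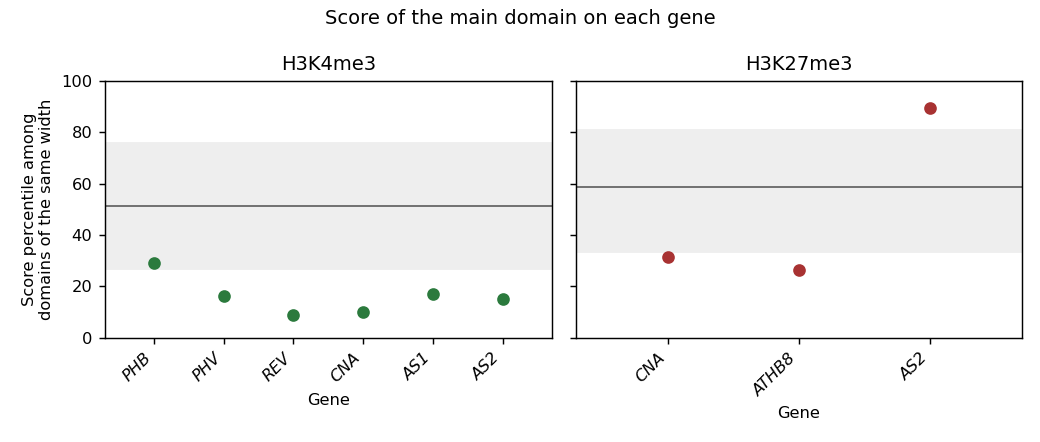
Score percentile of the main domain on each gene among all domains of the same width, for H3K4me3 (left, green points) and H3K27me3 (right, red points), with the median (line) and quartiles (grey band) over all genes that carry the mark. Of the 6 H3K4me3 points, PHB at 29.2 is the highest and lies just inside the band, and the other 5 lie below it.

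Upstream of the HD-ZIP III genes stand the MIR165 and MIR166 loci, whose mature products guide cleavage of all 5 HD-ZIP III mRNAs. H3K27me3 covered the whole annotated hairpin at 6 of these 9 loci (MIR165A, MIR165B, MIR166A, MIR166B, MIR166F and MIR166G), as it did at 29.8% of the 326 nuclear miRNA loci. These 6 were also the loci of the 9 that carried the mark, against 31.3% of all miRNA loci. MIR166A and MIR166B carried H3K4me3 as well. That mark was on 14.7% of the 326 miRNA loci, and 8 of the 326 carried both marks. The H3K27me3 domains were 2100 bases wide at MIR165A, 1800 at MIR166B and MIR166G, 1200 at MIR165B and MIR166A and 600 at MIR166F. MIR166C and MIR166D were touched by neither mark, and at MIR166E a 300-base H3K4me3 domain covered 31 bases of the hairpin. In the mRNA table MIR166A alone was listed, at the floor of 1.00, and a primary transcript is longer than the hairpin. MIR165A overlaps another annotated locus.

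The protein-coding genes listed for the small RNA pathways were marked uniformly. They carried H3K4me3 alone, as did 54.2% of all protein-coding genes, but 40 of the 326 nuclear miRNA loci. A difference from the MIR165 and MIR166 loci is thus also one between the 2 kinds of locus in general. Among protein-coding genes with depths between 2.09 and 16.3, 91.6% carried H3K4me3 and 8.70% both marks. All 5 genes of the miRNA machinery carried H3K4me3 alone, with depths from 5.16 for DCL1, which cuts miRNA precursors, to 19.7 for AGO1, the main slicer, with SE at 13.4 the next deepest. AGO10, which sequesters miR165 and miR166 and thereby protects HD-ZIP III mRNA, had a depth of 7.06. The trans-acting siRNA branch restricts ARF3 and ARF4 on the adaxial side. All 7 genes listed for it, those targets among them, also carried H3K4me3 alone. The deepest of these were ARF3 at 13.8, which is also bound by the AS1 and AS2 complex, and RDR6, an RNA-dependent RNA polymerase, at 10.3. DCL4 at 2.59 and AGO7 at 4.71 were the shallowest. DCL1 and HYL1 overlap other annotated genes.

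LITTLE ZIPPER (ZPR) proteins bind HD-ZIP III proteins and block their dimers, and the ZPR genes are themselves induced by HD-ZIP III factors. ZPR1 carried both marks at a depth of 8.91, while ZPR3 at 1.92, ZPR4 at 2.18 and ZPR2 at 1.00 carried neither. Both marks were on 10.1% of all protein-coding genes and neither on 14.8%. ZPR4 is annotated as a non-coding RNA in the reference table. DRN and DRNL, AP2-type factors that interact with HD-ZIP III proteins, lay wholly under H3K27me3, each with 450 bases of H3K4me3, and had no mRNA value.

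Downstream of AS1 and AS2, the 4 class I KNOX genes all carried H3K27me3, as did 31.0% of all protein-coding genes. It covered 82.7% of the body of KNAT1, 92.5% of KNAT2, 80.4% of KNAT6 and 99.5% of STM. The mark was not particular to these genes. It was also on WUS, CLV3 and all 2 flower, 2 root and 3 pollen and seed markers named at the end. KNAT6 also carried H3K4me3. KNAT6 had a depth of 1.38, KNAT2 was at the floor of 1.00, and KNAT1 and STM were not listed. The 4 chromatin proteins reported to act with the AS complex, CLF, LHP1, HIRA and HDA6, all carried H3K4me3 alone, with depths of 4.36, 7.13, 3.81 and 8.28. H3K4me3 alone was on 54.2% of all protein-coding genes. Among genes with depths between 2.09 and 16.3, 91.6% carried H3K4me3 and 8.70% both marks. CLF, LHP1 and HDA6 overlap other annotated genes.

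KANADI and YABBY transcription factors promote abaxial fate. All 10 KANADI and YABBY genes carried H3K27me3, over a median of 86.3% of the body. It was on 3 of the 7 adaxial genes and on 31.0% of all protein-coding genes. H3K4me3 was also on 7 of the 10, where 10.1% of all genes carried both marks. Of the 10, 7 had depths within the range of the adaxial genes. That range was set by the adaxial genes themselves and held 53.4% of listed protein-coding genes. YAB1 (FIL) had 12.3, YAB3 11.7, YAB2 7.15, YAB5 6.84, KAN1 6.01, KAN3 5.0 and KAN2 4.11. KAN4, known from ovule integuments, was at 1.00, and the floral YABBY genes INO and CRC were not listed. YAB2 thus shared with ATHB8 a depth above 4 under H3K27me3 alone. These counts describe small lists in which no test was made, and KAN1 overlaps other annotated genes.

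**Figure D5:**
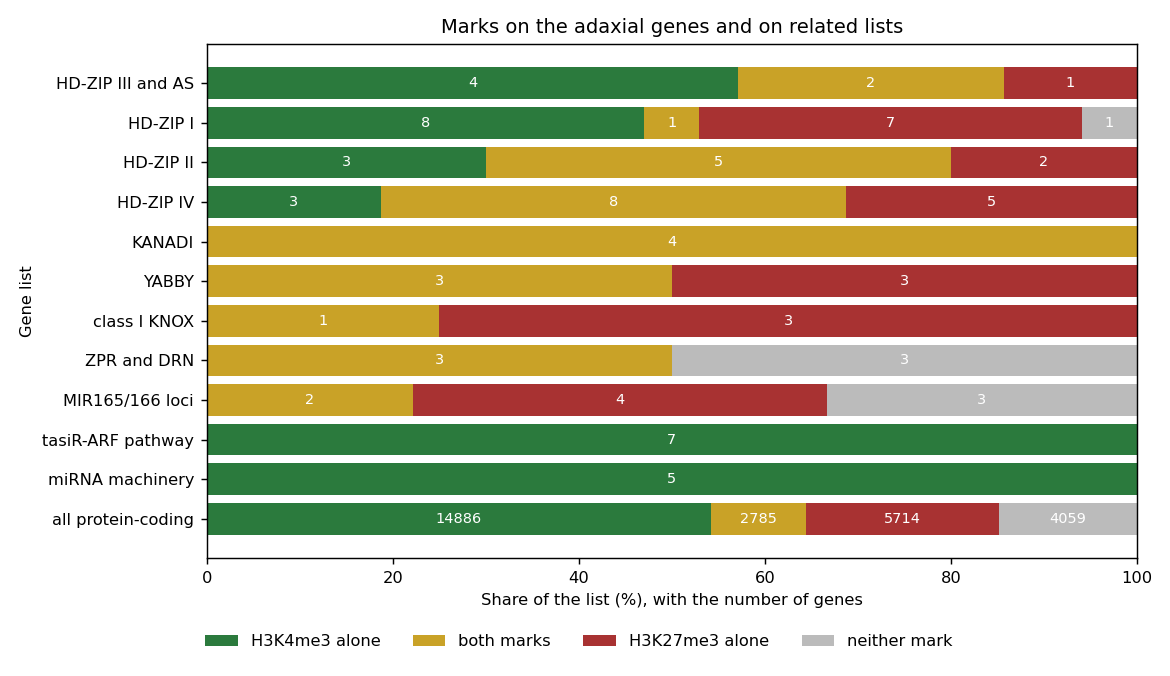
Share of each gene list, in percent, that carried H3K4me3 alone, both marks, H3K27me3 alone or neither mark, with the number of genes printed on each segment. H3K4me3 alone makes up 4 of the 7 adaxial genes and none of the KANADI and YABBY genes. It makes up all of the protein-coding genes listed for the miRNA machinery and the tasiR-ARF branch. It is on none of the microRNA hairpin loci upstream of the HD-ZIP III genes, and on 40 of all 326 nuclear miRNA loci.

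Among the HD-ZIP classes, H3K27me3 was on 2 of 5 HD-ZIP III, 8 of 17 HD-ZIP I, 7 of 10 HD-ZIP II and 13 of 16 HD-ZIP IV genes. It was on 31.0% of all protein-coding genes, so the HD-ZIP III count was near that share. No difference between classes was tested. The mRNA table listed all 5 HD-ZIP III and all 10 HD-ZIP II genes, 11 of the 16 HD-ZIP IV genes and 10 of the 17 HD-ZIP I genes. It listed 72.9% of all protein-coding genes. Depths ranged from 3.31 to 7.98 in HD-ZIP III, while HD-ZIP I reached 131.9 at HB6, an abscisic acid response gene, and 55.6 at HB5, both with H3K4me3 alone. HB54, with neither mark, and HB21, with H3K27me3 alone, were among the 7 unlisted HD-ZIP I genes. HD-ZIP II genes include direct HD-ZIP III targets with adaxial roles. Of these, HAT3 carried both marks at a depth of 10.2, HB4 both marks at 1.00, and HB2, a shade response gene, H3K4me3 alone at 11.5. The deepest HD-ZIP II genes were HAT2 at 18.1, with H3K4me3 alone, and HAT1 at 15.4, with both marks, and HB18 at 1.04 and HB4 were the shallowest. Among HD-ZIP IV genes, which act in the epidermis, the deepest were PDF2 at 32.6 and ATML1 at 20.0, both with both marks. ATML1 had nearly the H3K27me3 cover of ATHB8, 68.0% of the body, but also held H3K4me3 over 18.3%. HDG7 at 1.00, HDG11 at 1.48 and HDG12 at 1.63 carried H3K4me3 alone, and HDG3, HDG4, HDG9 and HDG10 carried H3K27me3 alone and were not listed. HDG7 and HDG12 overlap other annotated genes.

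The genes most like each member over the 3 readouts (share under each mark and log2 depth, each divided by its SD over all protein-coding genes) were found by Euclidean distance. For members with H3K4me3 alone close matches were common. The nearest were AT5G49950 to PHB at a distance of 0.0050, AT4G14600 to PHV at 0.0088, AT4G22840 to REV at 0.015 and AT4G01897 to AS1 at 0.0056. Listed genes numbered 14612 with H3K4me3 alone, 2199 with both marks and 1486 with H3K27me3 alone. The distances depend in part on these class sizes and do not rank how unusual a member is. For members with H3K27me3 the nearest gene was farther away. It was SHP1, a carpel and fruit MADS-box gene, for ATHB8 at 0.073, with 65.2% under H3K27me3, none under H3K4me3 and a depth of 4.43. For AS2 it was NAC019, a stress-responsive NAC gene, at 0.083, with 88.3% under H3K27me3, 19.2% under H3K4me3 and a depth of 2.05. For CNA it was AT3G06620 at 0.035.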

How the data were processed

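Bowtie, SICER and the TAIR10 build are named, without versions or settings, per the submitters' processing notes; the sources used here do not say how replicates and input were combined. The authors deposited 1 domain list per mark with a whole-number score of unstated unit, which rises with width (Spearman rho 0.89 for H3K4me3, 0.95 for H3K27me3), in steps of 150 and 300 bases. The deposited mRNA values are a coverage signal per gene (mean depth over exons) for 20764 genes, with 1 as its lowest value (7.66% of genes); the sources used here give no scaling, strand use or sequencing depth. Printed starts and ends have 1 added to the deposited ones.

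Gene bodies and names came from the RefSeq table of TAIR10.1, which matched all 130 listed loci and gives no strand. H3K4me3 fitted these bodies best at a shift of 0 on 5 of 5 chromosomes, among shifts up to 5000 bases in steps of 100; shares of bodies and distances rest on that table, and none of its coordinates is printed. Unlisted genes were set to a depth of 0. With 1 mRNA library and 1 list per mark, values were described without tests, in Python 3.11.15 with pandas 2.3.3, and overlap counting was checked on simulated domains. Members and lists were chosen with earlier results of these data known. Named were the 7 members, their nearest profiles (pseudocount 1), their neighbours, and list genes. The rule for lists gave the 2 deepest and 2 shallowest genes of each and genes outside its most frequent class; not all of these are named, and which ones are, like other list genes, was decided after their values were seen. Motif searches that had been planned were not run, because no sequence was used here.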

Additional observations from a re-analysis of the deposited data

How the results depend on the processing

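The calls of marks on the 7 genes were the same at 1 and at 300 covered bases as at 150. With 50% of the body as the minimum, 0 members carried H3K4me3 (15.5% of all genes did) and 0 carried both marks (1.49%), while ATHB8 and AS2 kept H3K27me3. When domains under their list's median score were left out, 3 members kept H3K4me3 (36.0% of all genes), namely PHV, REV and AS1, and 0 kept both marks (1.01%). PHB, CNA and AS2 lost H3K4me3 there, and CNA also lost H3K27me3. With 1 kb added on both sides, ATHB8 gained H3K4me3 from its neighbour, which gave 7 members with H3K4me3 (73.6% of all genes), 3 with H3K27me3 (43.9%) and 3 with both (25.6%). The median depth of 4.47 lay above the background median over all genes but below it when listed genes only were used. All 7 members had depths of at least 2, as 58.0% of all genes did. With a pseudocount of 0.1, 12 of the 14 nearest profiles stayed the same genes. No paired analysis was possible because the files hold 1 domain list per mark, without values per replicate, and for the same reason no replicate could be left out.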

Other observations

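A sample of 11 other class I LBD genes, not the whole family, was listed beside AS2. H3K27me3 was on 9 of the 11, against 31.0% of all protein-coding genes, and alone on 7, against 20.8%. None exceeded a depth of 1.76, the value of LBD4, so that AS2 at 2.09 was deeper than all 11 of this sample. Other LBD genes were not examined. LBD36 (ASL1), a close relative of AS2, had 92.7% of its body under H3K27me3 and was not listed, and LBD30 (JLO), which acts with AS2 in KNOX repression, lay wholly under the mark at a depth of 1.13. LOB itself carried both marks at 1.00. LBD11 and LBD4 carried H3K4me3 alone, at 1.65 and 1.76.

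The MIR166A and MIR166B hairpins, the ones with both marks, each lay next to an HD-ZIP I gene, HB7 and HB12, which are sister genes of drought response. HB7 and HB12 carried H3K4me3 alone, at depths of 10.8 and 15.5, over 53.1% and 96.5% of their bodies. Among TAS3 loci, which give the siRNAs against ARF3 and ARF4, TAS3A was listed at 10.6 although H3K27me3 covered 85.5% of it and H3K4me3 none. TAS3B lay wholly under H3K27me3, TAS3C carried neither mark, and neither was listed.

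Of 3 genes known as REV targets, TAA1 (auxin synthesis) carried both marks at 4.94, YUC5 (auxin synthesis) H3K27me3 alone at 1.00, and WRKY53 (leaf senescence) H3K4me3 alone at 3.45, WRKY53 overlapping another gene.

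Tissue markers bear on the label of the sample. The mesophyll genes CAB1 and RBCS1A had depths of 22244 and 12915, and the 4 vascular markers were all listed, from PXY at 6.02 to SUC2 at 111.9. The 4 epidermis and guard cell markers were also all listed, from FAMA at 7.56 to PDF1 at 26.8. The shoot meristem markers STM, WUS and CLV3 and the root markers PLT1 and EXPA7 were not listed. Of the flower markers AG stood at 1.41 and AP3 was not listed, and of the pollen and seed markers VGD1 stood at 1.00 and MGH3 and CRA1 were not listed. The part of any cell type in the depths of the adaxial genes was not tested.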
